A study of Mus musculus with 2 samples.

Results

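The Mir106b and Mir106a clusters are paralogous groups of microRNA (miRNA) genes, and their 9 genes were followed here in the midbrain of mouse embryos. The members were taken by gene symbol: Mir106b, Mir93 and Mir25 form the Mir106b cluster on chromosome 5, and Mir106a, Mir18b, Mir20b, Mir19b-2, Mir92-2 and Mir363 form the Mir106a cluster on chromosome X. All 9 were found among the 1973 miRNA genes of the deposited tables. RNA of less than 30 bases was measured in B6NCrl embryos at 15.5 days of development, with male and female tissue pooled and no treatment or mutation named in the labels. Replicate 1 is a pool of midbrains from 78 embryos and replicate 2 a pool from 62 embryos, both labelled as biological replicates of a single group. There is therefore no contrast between conditions, and the comparison of interest is of one cluster with the other within each library.

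A miRNA is a short RNA cut from a hairpin precursor, and it lowers the output of messenger RNAs that pair with its seed, bases 2 to 8 of the mature strand. The Mir106b, Mir106a and Mir17 clusters descend from a common ancestral cluster, and their members fall into seed groups that can act on shared targets, among them the cell cycle inhibitor Cdkn1a and the pro-apoptotic gene Bcl2l11. The Mir106b cluster lies within Mcm7, which encodes a subunit of the helicase that licenses DNA replication, and is associated with dividing cells and with neural stem and progenitor cells. In mice, loss of the Mir17 cluster is lethal around birth, whereas animals lacking the Mir106b or the Mir106a cluster are viable.

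The seed-bearing strand of each member is shown first, because the comparison between the clusters turns on which genes share a seed. Sequences are those of RefSeq on GRCm38.p6 (the assembly of mm10), which held all 9 members at the same precursor positions as GENCODE M21. The seed is in capitals. The strand from the 5′ arm of the precursor is given for the miR-17 and miR-18 seed groups and the strand from the 3′ arm for the others.
Mir106b: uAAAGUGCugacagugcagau
Mir93: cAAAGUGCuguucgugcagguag
Mir25: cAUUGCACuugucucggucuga
Mir106a: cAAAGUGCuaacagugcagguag
Mir20b: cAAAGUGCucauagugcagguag
Mir18b: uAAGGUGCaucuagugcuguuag
Mir19b-2: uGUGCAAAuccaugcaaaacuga
Mir92-2: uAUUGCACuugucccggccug
Mir363: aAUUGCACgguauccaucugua
Both clusters thus hold the miR-17 seed, in Mir106b and Mir93 on one side and in Mir106a and Mir20b on the other. Both also hold the seed of miR-25 and miR-92, in Mir25 on one side and in Mir92-2 and Mir363 on the other. The seeds of Mir18b and Mir19b-2 have no counterpart in the Mir106b cluster.

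Outside the seed the strands differ by a few bases, counted here from 1 at the 5′ end with the first-named gene's base first. Mir106b and Mir106a differ at 3 of 21 compared positions (U1C, G10A and A20G), and Mir93 and Mir20b at 3 of 23 (G10C, U11A and C13A). Mir25 and Mir92-2 differ at 3 of 21 (C1U, U14C and U18C), whereas Mir25 and Mir363 differ at 13 of 22 and share little beyond the seed. Some mature sequences of the Mir106a cluster occur in another precursor. The 3′ strands of Mir19b-2 and Mir92-2 are identical over their whole length to those of Mir19b-1 and Mir92-1 in the Mir17 cluster. No mature sequence of the other 7 members was found whole in another mouse precursor of the table, and their longest run shared with another precursor was 17 bases, between Mir18b and Mir18.

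The tables give whole read counts per miRNA gene, and reads that map to several places are tallied in a row of their own that names no gene. A gene's count takes in both arms of its precursor, so levels of the seed-bearing strand alone were not measured. The row of reads with several places held 37.7% of all reads in replicate 1 and 35.8% in replicate 2. Sense counts of all genes came to 3429704 in replicate 1 and 5752476 in replicate 2. Levels are given in CPM, in which each gene's sense counts are scaled so that every library has the same total. A single read thus stood for 0.292 CPM in the shallower replicate 1 and for 0.174 CPM in replicate 2. A chi-square of 27185 over 469 genes (468 degrees of freedom) set the 2 libraries apart beyond sampling noise, so they were kept as 2 replicates. The miRNAs listed for neurons summed to 18000 and 19294 CPM in replicates 1 and 2 and those listed for white blood cells and microglia to 334 and 319 CPM. The single gene listed for endothelium, Mir126a, had 24909 and 21568 CPM, above the neuronal sum. The muscle list summed to 11.7 and 16.0 CPM, all of it from Mir206. The other genes of that list are numbered copies, for which a count of 0 cannot be read as absence where their reads have several places. The neuronal list also holds a numbered copy, so its sum, set against Mir126a above, may be too low for the same reason. Intervals and floors cover counting error only, since the reads carry no stated molecular identifiers.

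All 9 members were detected at 1 CPM or more in both libraries, against 22.5% of all genes. In counted reads the Mir106b cluster was far more abundant than the Mir106a cluster. The Mir106a cluster counts leave out reads with several places from the shared 3′ strands of Mir19b-2 and Mir92-2. No Mir106b cluster gene has a strand found in another precursor, but places elsewhere in the genome were not searched. The 3 genes of the Mir106b cluster summed to 20485 and 20785 CPM in replicates 1 and 2, or 20635 ± 212 CPM (SD, n = 2). The 6 genes of the Mir106a cluster summed to 1133 and 1269.7 CPM, or 1201 ± 96.8 CPM. As shares of all sense counts these were 2.05% (95% exact Clopper-Pearson interval 2.03 to 2.06) and 2.08% (2.07 to 2.09) for the Mir106b cluster, and 0.113% (0.110 to 0.117) and 0.127% (0.124 to 0.130) for the Mir106a cluster. In bulk tissue, fewer cells that make a miRNA and less of it per cell cannot be told apart.

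Within the Mir106b cluster, Mir93 was the highest member, at 11821 CPM in replicate 1 and 13240.4 CPM in replicate 2, a mean of 12531 ± 1004 CPM. Mir106b, the first precursor of the cluster, had 8292 and 7179 CPM, a mean of 7735 ± 787 CPM. Mir25, the last precursor, had only 372 and 366 CPM, a mean of 369 ± 4.45 CPM. Mir93 and Mir106b therefore made up nearly the whole cluster, and Mir25 held 1.82% (1.72 to 1.92) of its counts in replicate 1 and 1.76% (1.69 to 1.84) in replicate 2. Mir25 had the cluster's smallest coefficient of variation between the libraries, 1.21%, against 8.01% for Mir93 and 10.2% for Mir106b. With 2 libraries and far fewer counts for Mir25, this does not show that Mir25 varied less than Mir93. Among all genes, Mir93 ranked 16, Mir106b 27 and Mir25 142 by mean CPM.

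**Figure D1:**
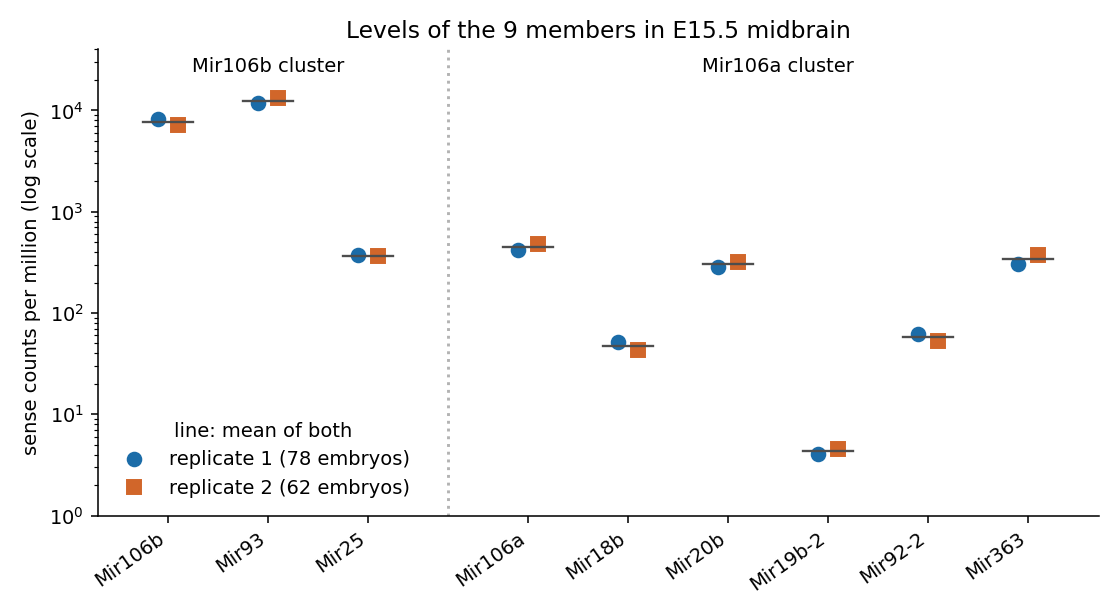
Sense CPM (log axis) of the 9 members in replicate 1 (circles) and replicate 2 (squares), with a line at the mean of both, Mir106b cluster on the left and Mir106a cluster on the right. Mir93 and Mir106b stand at 12531 and 7735 CPM, Mir25 lies at 369 CPM among the highest Mir106a cluster genes, and Mir19b-2 is lowest at 4.30 CPM.

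Within the Mir106a cluster no gene reached 1000 CPM, whereas 92 genes of the whole table did. Mir106a, which carries the miR-17 seed, was highest at 423 and 482 CPM in replicates 1 and 2, a mean of 452 ± 41.5 CPM. Mir363, with the seed of miR-25 and miR-92, had 305 and 371 CPM (338 ± 46.4 CPM). Mir20b, again with the miR-17 seed, had 287 and 317 CPM (302 ± 21.0 CPM). These 3 genes held most of the cluster's counted reads, with 37.6 ± 0.417%, 28.1 ± 1.60% and 25.2 ± 0.279% of its counts (SD, n = 2). Those counts leave out reads with several places from the shared 3′ strands of Mir92-2 and Mir19b-2, so the shares are uncertain.

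The other 3 genes of the Mir106a cluster were low. Mir92-2 had 61.8 and 53.0 CPM, a mean of 57.4 ± 6.22 CPM, and Mir18b had 51.6 and 42.9 CPM, a mean of 47.3 ± 6.13 CPM. Mir19b-2 had 14 counts in replicate 1 and 26 in replicate 2, or 4.08 and 4.52 CPM, which lie above the floors of 0.875 and 0.522 CPM that 3 counts correspond to. Mir19b-2 and Mir92-2 are the members whose 3′ strand is also encoded elsewhere. How many of the reads with several places carried those strands cannot be read from the tables, so both levels are uncertain. Across 916 genes matched to a mature sequence, 50 had some but not all of their mature sequences in another precursor, and 78% of these were detected. Of the 35 genes with every mature sequence in another precursor 25.7% were detected, and of the 831 genes with none 42.0%.

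In order of mean level the members ran Mir93, Mir106b, Mir106a, Mir25, Mir363, Mir20b, Mir92-2, Mir18b and Mir19b-2. The ranges over the 2 libraries overlapped for Mir25 and Mir363 and for Mir363 and Mir20b, so the order within each of those pairs was not separated by the replicates. All other neighbours in the order had ranges that did not overlap, with the narrowest separation between Mir92-2 (lowest value 53.0 CPM) and Mir18b (highest value 51.6 CPM). As the level of Mir92-2 is uncertain, so are its places below Mir20b and above Mir18b. The widest steps were between Mir106b and Mir106a, whose means differed 17.1-fold, and between Mir18b and Mir19b-2, with means of 47.3 and 4.30 CPM, of which that of Mir19b-2 is uncertain as stated above.

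The precursors lie close together in both clusters. The Mir106b cluster spans 498 bases on the minus strand (mm10 chr5:138165321-138165818), with 126 bases between Mir106b and Mir93 and 118 between Mir93 and Mir25. All 3 precursors lie within Mcm7 on its own strand. Mir106b overlaps no exon of the 10 annotated Mcm7 transcripts, and Mir93 and Mir25 each overlap an exon of 1 of them, a retained intron transcript. The Mir106a cluster spans 875 bases on the minus strand (mm10 chrX:52741693-52742567), with gaps of 46 to 138 bases. Its first precursor, Mir106a, reaches into the exon of the noncoding gene Kis2 where Kis2 ends, at 52742563, and the other 5 precursors overlap no annotated gene of that strand other than miRNAs.

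**Figure D2:**
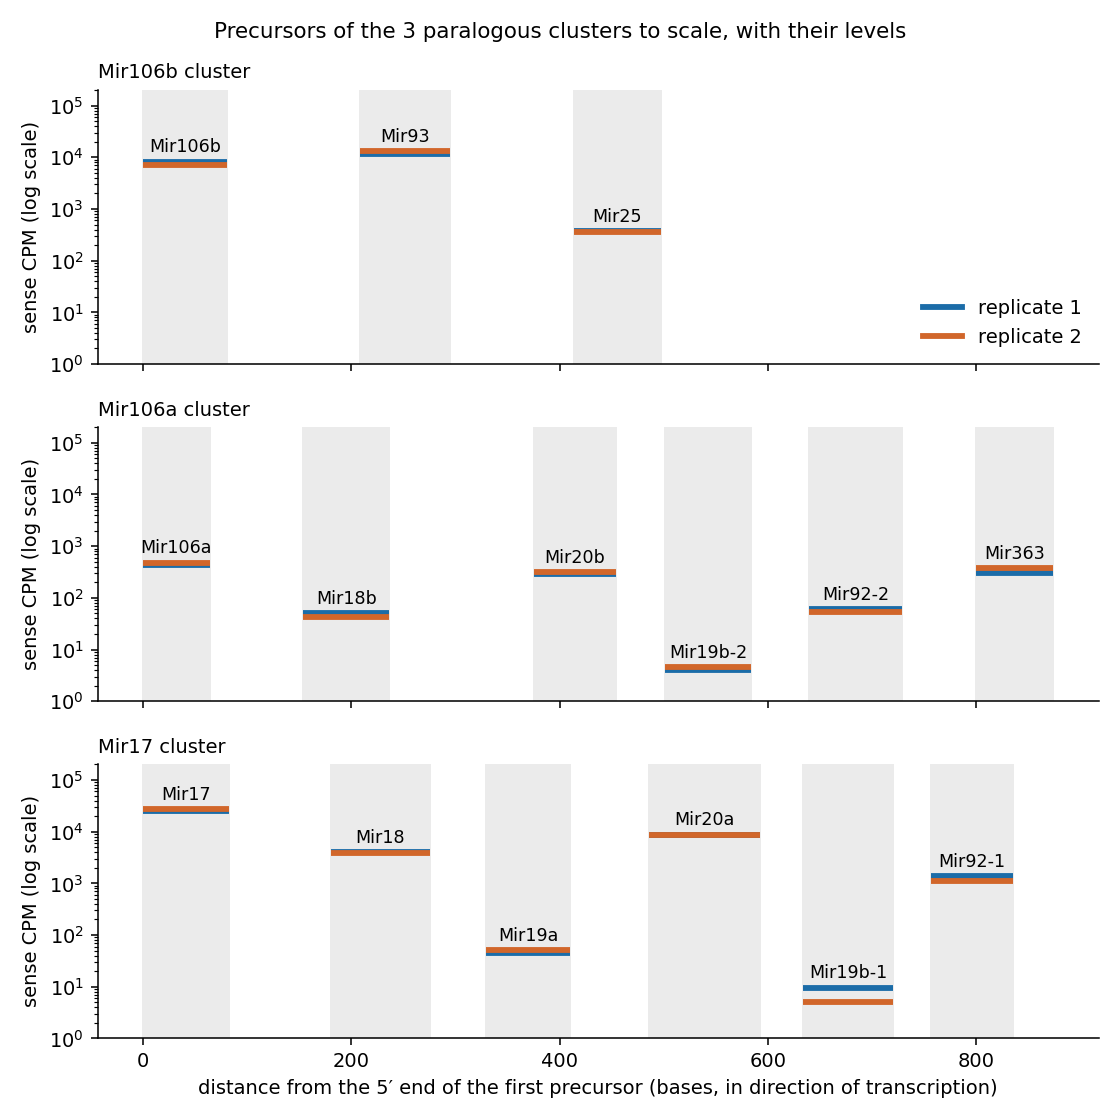
Precursors (grey bands, to scale) of the Mir106b, Mir106a and Mir17 clusters by distance in bases from the 5′ end of the first precursor, each with a line at its sense CPM in replicate 1 and in replicate 2 on a log axis. Levels differ strongly between close neighbours: Mir18b (47.3 CPM) lies 89 bases from Mir106a (452 CPM), and Mir25 (369 CPM) 118 bases from Mir93 (12531 CPM).

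Levels did not follow position within a cluster. The highest member exceeded the lowest 34.0-fold in the Mir106b cluster. In the Mir106a cluster the members with no shared mature sequence ran from 452 CPM for Mir106a to 47.3 CPM for Mir18b. Mir93 exceeded Mir25 in counts 31.8-fold (95% exact counting interval 30.0 to 33.6) in replicate 1 and 36.2-fold (34.7 to 37.8) in replicate 2. Mir106b exceeded Mir25 22.3-fold (21.1 to 23.6) in replicate 1 and 19.6-fold (18.8 to 20.5) in replicate 2. Mir106a exceeded Mir20b 1.47-fold (1.36 to 1.60) in replicate 1 and 1.52-fold (1.43 to 1.61) in replicate 2. The precursors of the clusters also differ in base composition, with 57.3%, 55.7% and 63.1% G and C in Mir106b, Mir93 and Mir25, against 38.1% to 47.3% in the 6 precursors of the Mir106a cluster. Precursor lengths ran from 65 bases for Mir106a to 91 for Mir92-2. Counts were not divided by length in these ratios, because a small RNA read spans a whole mature strand. The spread between libraries shows nothing of a bias between sequences in capture or amplification that the 2 libraries have in common.

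Set against each other within a library, the counted reads of the clusters differed by more than an order of magnitude. The summed counts of the Mir106b cluster were 18.1 times those of the Mir106a cluster (95% exact counting interval 17.5 to 18.7) in replicate 1 and 16.4 times (16.0 to 16.8) in replicate 2, or 4.10 ± 0.10 on the log2 scale (SD, n = 2). The lowest Mir106b cluster sum was far above the highest Mir106a cluster sum, and the direction was the same in both libraries. An exact two-sided sign-flip permutation test over the 2 libraries gave p = 0.5, the smallest value that 2 libraries allow. The Mir106a cluster sums leave out reads with several places from the shared strands of Mir19b-2 and Mir92-2. With only members whose mature sequences occur in no other precursor, the mean ratio was 4.18 on the log2 scale. The ratio with the left-out reads included cannot be read from these counts.

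In the counted reads the difference lay in the genes with the miR-17 seed. The genes with that seed summed to 20113 and 20419 CPM in the Mir106b cluster (Mir106b and Mir93) in replicates 1 and 2, against 710.3 and 799 CPM in the Mir106a cluster (Mir106a and Mir20b). The ratio was 28.3 (27.2 to 29.5) in replicate 1 and 25.6 (24.8 to 26.3) in replicate 2. For the genes with the seed of miR-25 and miR-92, the counted reads were near parity between the clusters. Those counts leave out reads of miR-92a-3p with several places. The reads left for Mir92-2 may thus come largely from its 5′ strand, which lacks this seed. Mir25 had 372 and 366 CPM, against 367 and 424 CPM for Mir92-2 and Mir363 together. That ratio was 1.01 (0.938 to 1.10) in replicate 1, where the interval spans equality, and 0.863 (0.814 to 0.916) in replicate 2, where it lies below equality. The mean of -0.096 on the log2 scale was smaller than its SD of 0.16.

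The seed groups themselves were compared by the ratio of these ratios. In replicate 1 the miR-17 seed ratio was 27.9 times the ratio for the seed of miR-25 and miR-92 (95% counting interval 25.6 to 30.5), and in replicate 2 it was 29.6 times (27.7 to 31.6). Neither interval comes near equality. Mir92-2 contributes only reads that map to a single place, and these may come largely from its 5′ strand. Without Mir92-2, Mir25 stood at 1.22 times Mir363 (1.12 to 1.33) in replicate 1 and at 0.987 times (0.929 to 1.05) in replicate 2. Mir25 exceeded Mir92-2 alone 6.02-fold (5.20 to 6.99) in replicate 1 and 6.90-fold (6.11 to 7.80) in replicate 2.

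**Figure D3:**
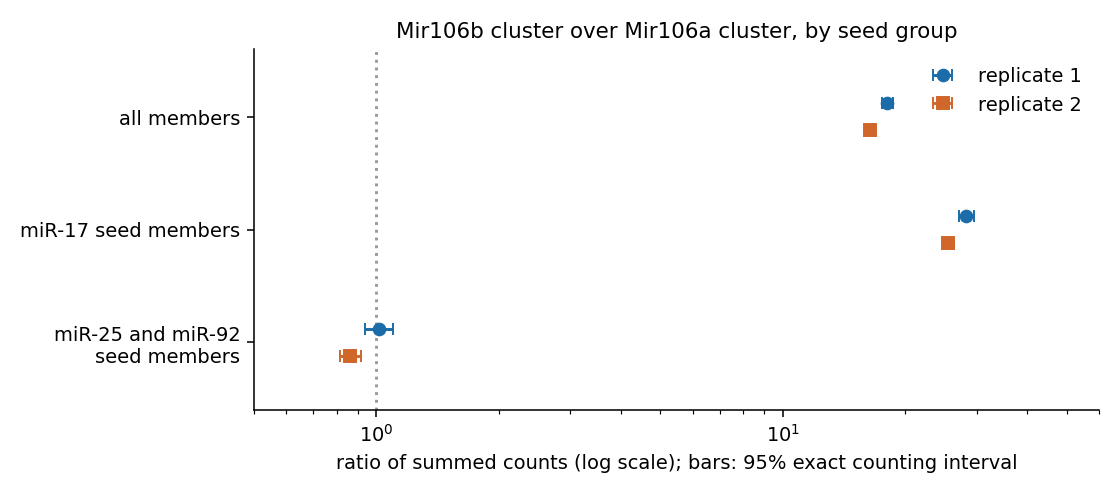
Ratio of summed counts, Mir106b cluster over Mir106a cluster (log axis), for all members, for members with the miR-17 seed and for members with the seed of miR-25 and miR-92, in replicate 1 (circles) and replicate 2 (squares) with 95% exact counting intervals. The first 2 ratios lie between 16.4 and 28.3, and the third lies at 1.01 and 0.863, beside the dotted line of equality.

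By single genes the contrast was widest for Mir93. Mir93 exceeded Mir20b 41.2-fold (38.6 to 43.9) in replicate 1 and 41.8-fold (39.9 to 43.8) in replicate 2. Mir106b exceeded Mir106a 19.6-fold (18.6 to 20.7) in replicate 1 and 14.9-fold (14.3 to 15.5) in replicate 2, and these intervals do not overlap. The ratio of Mir93 to Mir20b was thus alike in both pools within counting error, while that of Mir106b to Mir106a was not.

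The Mir17 cluster on chromosome 14 is the part of the table most like these clusters and carries the same 4 seeds. Its strands for the first 2 seed groups are shown because they differ so little from those of the Mir106a cluster.
Mir17: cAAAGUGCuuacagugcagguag
Mir20a: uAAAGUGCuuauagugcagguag
Mir18: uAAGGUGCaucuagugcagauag
Mir106a differs from Mir17 at a single position of 23 (A10U), Mir20b from Mir20a at 2 (C1U and C10U), and Mir18b from Mir18 at 2 (U18A and U20A). Despite this likeness the Mir106a cluster genes had far fewer counts. Mir106a had 423 and 482 CPM, against 24784 and 27113 CPM for Mir17, a ratio of 0.0171 (0.0162 to 0.0180) in replicate 1 and 0.0178 (0.0171 to 0.0184) in replicate 2. Mir18b had 0.0129 times the counts of Mir18 (0.0111 to 0.0150) in replicate 1 and 0.0112 times (0.00986 to 0.0127) in replicate 2.

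Mir20b had 0.0329 times the counts of Mir20a (0.0309 to 0.0351) in replicate 1 and 0.0360 times (0.0344 to 0.0377) in replicate 2. Mir92-2 had 0.0454 times the counts of Mir92-1 (0.0394 to 0.0521) in replicate 1 and 0.0470 times (0.0417 to 0.0527) in replicate 2. For the Mir106a, Mir18b and Mir20b pairs every interval lay far below equality. The 3′ strands of Mir92-2 and Mir92-1 are identical, so that ratio, like the next one, leaves out reads of the shared strand that have several places. Neither ratio gives how the shared strand was divided between the genes. Mir19b-2 had 14 and 26 counts, against 33 and 29 for Mir19b-1. That ratio was 0.424 (0.210 to 0.815) in replicate 1 and 0.897 (0.507 to 1.58) in replicate 2, where the interval spans equality.

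**Figure D4:**
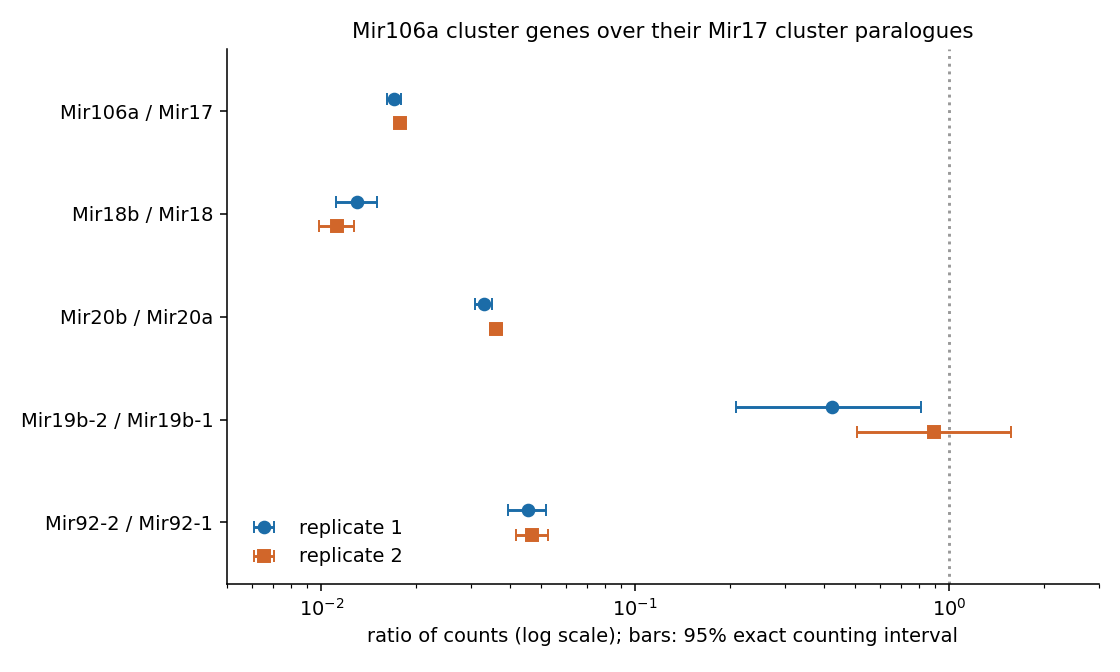
Ratio of counts of each Mir106a cluster gene over its Mir17 cluster paralogue (log axis) in replicate 1 (circles) and replicate 2 (squares), with 95% exact counting intervals and a dotted line at equality. Of the 5 pairs, 4 lie between 0.0112 and 0.0470, and Mir19b-2 over Mir19b-1 lies at 0.424 and 0.897 with wide intervals. The pairs of Mir92-2 and Mir19b-2 leave out reads of their shared 3′ strands that have several places.

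With the same reads left out, the Mir106a cluster as a whole had 0.0291 times the counts of the Mir17 cluster (0.0282 to 0.0301) in replicate 1 and 0.0310 times (0.0303 to 0.0318) in replicate 2. The Mir106b cluster had 0.526 times the counts of the Mir17 cluster (0.522 to 0.531) in replicate 1 and 0.508 times (0.504 to 0.511) in replicate 2. In counted reads the Mir106b cluster was thus near the Mir17 cluster in scale and the Mir106a cluster was not. The Mir17 cluster counts leave out reads with several places from the shared 3′ strands of Mir19b-1 and Mir92-1. As no Mir106b cluster gene has such a strand, the ratio of these clusters with those reads included may be lower. By how much cannot be read from these counts. Reads of either cluster with places outside the listed precursors were not searched for. Mir93 was itself above Mir20a of the Mir17 cluster, 1.35-fold (1.33 to 1.38) in replicate 1 and between 1.49-fold and 1.52-fold, by the bounds of its interval, in replicate 2. Mir106b stood below Mir17, at 0.335 times (0.330 to 0.339) in replicate 1 and 0.265 times (0.262 to 0.268) in replicate 2.

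Taken over all 6 genes of these clusters that carry the miR-17 seed, the Mir106b cluster supplied 37.0% and 35.7% of counts in replicates 1 and 2, the Mir106a cluster 1.31% and 1.40%, and the Mir17 cluster 61.7% and 62.9%. A further gene with this seed in the RefSeq table, Mir6383, had 0 counts in both libraries. Mir93 was the second largest single source at 22.5 ± 1.00% (SD, n = 2), after Mir17 at 46.5 ± 1.30%. Mir106a and Mir20b each supplied less than 1%, at 0.811 ± 0.0456% and 0.542 ± 0.0185%.

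The counts of genes with the seed of miR-25 and miR-92 were distributed differently. Of the counts of Mir25, Mir92-2, Mir363, Mir92-1, Mir92b and Mir32, Mir25 supplied 5.93 ± 0.0810%, Mir363 5.44 ± 0.886% and Mir92-2 0.922 ± 0.0763% (SD, n = 2). Mir92b, a gene outside the clusters on chromosome 3, supplied 65.3 ± 1.32%, and Mir92-1 of the Mir17 cluster 20.0 ± 2.13%. Mir32, in an intron of Tmem245, supplied 2.41 ± 0.0804%. Mir367, which also has this seed and was looked at after its values were seen, had 0 counts in replicate 1 and 1 in replicate 2. Mir18b held 1.28% and 1.11% of the counts of Mir18b and Mir18 in replicates 1 and 2, and Mir19b-2 held 6.97% and 7.39% of those of Mir19b-2, Mir19a and Mir19b-1. The shares for the seed of miR-25 and miR-92 leave out reads of miR-92a-3p that have a place at both Mir92-1 and Mir92-2. Those for the miR-19 seed leave out reads of miR-19b-3p that have a place at both Mir19b-1 and Mir19b-2. The reads left for Mir92-1, Mir92-2, Mir19b-1 and Mir19b-2 may come largely from their 5′ strands, which lack these seeds. How each of these seeds was divided among its genes is therefore uncertain.

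The members' levels were also compared between the 2 pools, with a two-sided exact binomial test of replicate 1 against replicate 2 on TMM-scaled counts and Benjamini-Hochberg adjustment over 717 genes. This test compares the libraries and not conditions. It called 4 of the 9 members, against 19.8% of all genes tested. Among the 203 genes with a mean of 100 CPM or more 57.1% were called, and all 4 called members were among the 6 members at that level, so their number was near the background. Between the same pools the endothelial Mir126a, given above, was higher in replicate 1, while the choroid plexus Mir204 had 1129 and 1497 CPM in replicates 1 and 2 and the hepatic Mir122 43.2 and 76.1 CPM, and their part in these differences was not tested.

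Within the Mir106b cluster the counts of Mir106b and Mir93 differed between the libraries in opposite directions. These p-values treat reads as independent and cover counting error only, and with a coefficient of variation of 10% between replicates the adjusted p of edgeR's exact test was 1 for both genes. Mir106b was 1.18-fold higher in replicate 1 than in replicate 2 (log2 ratio 0.24, adjusted exact binomial p = 1.35e-101), and Mir93 was lower, at 0.914-fold (log2 ratio -0.13, adjusted exact binomial p = 1.30e-47). Mir106b accordingly had 0.701 times the counts of Mir93 (0.691 to 0.712) in replicate 1 and 0.542 times (0.536 to 0.549) in replicate 2. Mir25 gave a log2 ratio of 0.058 (-0.043 to 0.16) and was not called.

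In the Mir106a cluster, Mir106a (log2 ratio of replicate 1 over replicate 2 -0.15, adjusted exact binomial p = 0.00665) and Mir363 (-0.25, p = 3.77e-05) were lower in replicate 1. Mir20b (-0.11), Mir18b (0.30), Mir92-2 (0.25) and Mir19b-2 (-0.11) were not called. The median absolute log2 ratio of the 9 members was 0.15, against 0.18 for the 471 genes with a mean of 1 CPM or more and counts in both libraries. With a coefficient of variation of 10% allowed between replicates, edgeR's exact test called none of the members and 3 of the 717 genes.

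**Figure D5:**
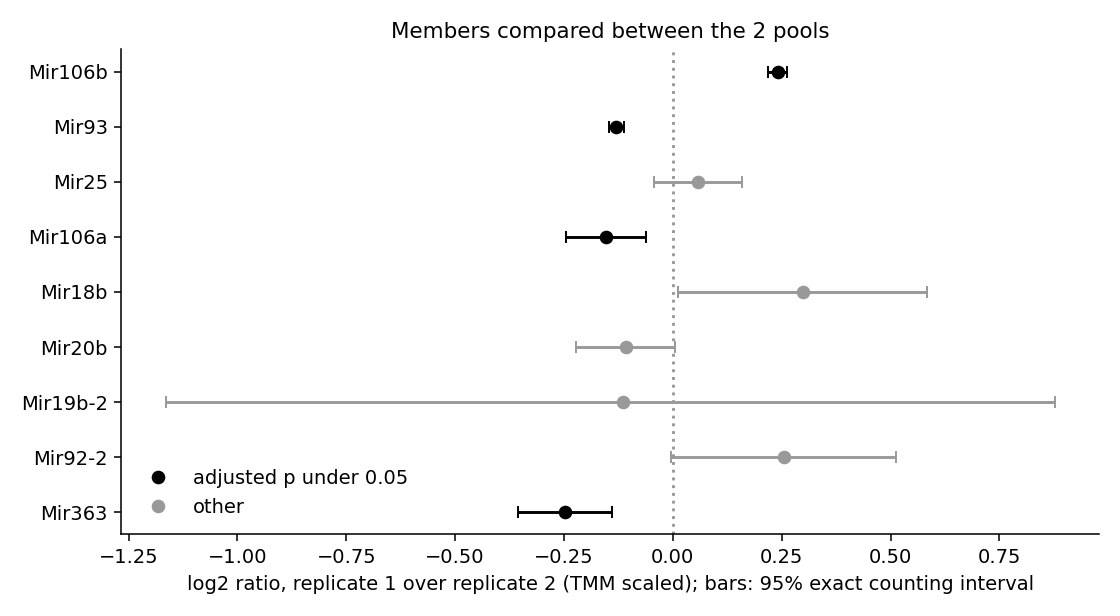
Log2 ratio of replicate 1 over replicate 2 (TMM scaled) for the 9 members, with 95% exact counting intervals, black where the adjusted exact binomial p was under 0.05 and grey otherwise. Mir106b lies at 0.24 and Mir93 at -0.13 on opposite sides of 0, and the interval of Mir19b-2 reaches from -1.16 to 0.88.

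With a single tissue and age, no pattern across conditions could be compared between genes, so the genes nearest in mean CPM over the 2 libraries are named for the highest member of each cluster. Mir93 lay between Mir369 (12903 ± 445 CPM) and Mir137 (11192 ± 555 CPM), and its range overlapped that of Mir369 but not that of Mir137. Mir106a lay between Mir376c (454 ± 26.0 CPM) and Mir383 (442 ± 57.2 CPM), and its range of 423 to 482 CPM overlapped those of both.

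Reads on the strand opposite to the members were nearly absent. They came to 1 read in all, opposite Mir106b in replicate 2, which is under the floor of 3 counts.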

How the data were processed

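Small RNA was counted in 2 libraries of embryonic mouse midbrain. For each library the authors deposited whole read counts per miRNA gene, without normalization, in columns read from their layout as counts on either strand, on the sense strand and opposite to it. The assembly was mm10 and the annotation M4, per the readme files deposited with the tables. Aligner and counter: not given in the sources used here. Rows that name no gene held 54.6% of reads in replicate 1 and 56.1% in replicate 2, and stayed out of library totals.

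Sense counts were scaled to CPM. Symbols, positions and hosts came from GENCODE M21 on the same assembly (1894 of 1973 identifiers matched), and mature sequences from RefSeq. Ratios within a library carry 95% exact conditional intervals, and means and SDs are over 2 libraries. The ratio of ratios instead carries a 95% interval from a normal approximation on the log scale. The labels call the pools biological replicates, and tests between them compare these 2 libraries only. Pools were compared with a two-sided exact binomial test on counts scaled by TMM in edgeR 4.0.16, over 717 genes with a count, at an adjusted p of 0.05. Alternatives were the either-strand column, other scalings (DESeq2 1.42.0 size factors among them), filters, pseudocounts, leaving out each replicate and, chosen after the data were seen, division by precursor length and leaving out Mir92-2. The binomial test and the ratio intervals were checked on simulated counts with counting error only. That check cannot show how the test behaves when libraries vary beyond counting error, as these do.

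The named genes were the 9 members, the Mir17 cluster, Mir92b, Mir32 and the nearest genes in level to the highest member of each cluster. Marker genes of other cell types (Mir126a, Mir204, Mir122, Mir206) and further genes with a shared seed (Mir6383, Mir367) lie outside that rule. The members and lists were chosen with earlier results of these data known.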

Additional observations from a re-analysis of the deposited data

How the results depend on the processing

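The ratio of the Mir106b to the Mir106a cluster, 4.10 on the log2 scale, kept its direction under every alternative run and ranged from 4.03 to 4.18 when each replicate was left out. It was 5.10 as a mean over members in place of the sum, because the clusters differ in size. Dividing counts by precursor length moved it to 3.87, the miR-17 seed ratio to 4.47, the Mir106b to Mir17 cluster ratio to -0.89 and the Mir106a to Mir17 cluster ratio to -4.76. The ratio for the seed of miR-25 and miR-92 had no stable direction: -0.21 without replicate 1, 0.020 without replicate 2 and 0.13 without Mir92-2. The members called between the pools were the same 4 under 5 alternatives, but 0 in edgeR's exact test with a coefficient of variation of 10%, which called 3 genes in all where the binomial test called 142. Detection held for all 9 members except at a limit of 10 CPM, which 8 passed. No paired analysis was possible because the samples form a single group. Counts of Mir19b-2 limit what can be said of it.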
